A study of Mus musculus with 40 samples.

Results

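Bst1, Cdh1, Capn5 and Spats2 are 4 genes that moved one way after long-term deletion of Zmiz1 and the other way after an antibody block of Notch1 in mouse thymocytes. They are 4 of 23284 genes in the count table that holds the pI-pC and antibody libraries, and 4 of 23107 in each of the tamoxifen tables. They were picked by name because of those opposite movements, so the pI-pC and antibody values of these 4 genes are given as a description, with no test. The tamoxifen deletion did not choose them and was tested. The developmental stages were also compared by test in control mice, but those control libraries took part in the choice, so that comparison is not independent of it.

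The study sequenced RNA from early T-cell progenitors (ETP) and from the later DN3 stage in C57BL/6 mice, in 40 libraries and 12 groups. In the pI-pC groups, MxCreZmiz1f/f mice (DeltaMxCre) and MxCre controls, 3 mice per group, received 40 mcg pI-pC every 2 days for 5 injections, and cells were sorted 8 weeks later. In the tamoxifen groups, Rosa26CreERT2Zmiz1f/f mice (DeltaTamCre) and Rosa26CreERT2 controls (TamCre), 4 mice per group, received 0.2 mg/g tamoxifen and were sorted after 43 to 44 hours. The antibody groups received 10 mg/kg anti-NRR Notch1 antibody (AntiNRR) or isotype IgG and were sorted at 24 hours, with 3 libraries per group and a number of mice that is not given. Ages are not given in the sources used here. The Cre-only controls carry the same Cre and drug as the deleted mice. MxCre is driven by an interferon-responsive promoter and pI-pC switches it on in many blood and other cells, and Rosa26CreERT2 is expressed broadly, so neither deletion is restricted to thymocytes. The sources give the IgG and AntiNRR mice no genotype other than the strain.

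Estimated counts per library summed to between 9456818 and 23962395 where pI-pC and antibody libraries share a table, 48127197 and 91659598 in tamoxifen DN3, and 17418638 and 30975324 in tamoxifen ETP. Zmiz1, the deleted gene, lay lower in every deleted library than in every control library of its comparison: 58.7 to 114 against 157 to 319 CPM (counts scaled to a common library size) in pI-pC ETP, 113 to 129 against 286 to 349 in pI-pC DN3, 120.2 to 307 against 417 to 461 in tamoxifen ETP, and 184 to 243 against 301 to 353 in tamoxifen DN3. The sort labels give both stages the CD44+CD25- gate, whereas DN3 cells are usually defined as CD44-CD25+. The summed level of 5 progenitor markers was 686 to 1009.7 CPM in MxCre ETP and 81.0 to 109.8 CPM in MxCre DN3, and that of 5 DN3 markers was 2477 to 3258 and 7175 to 9683 CPM. The DN3 markers did not part the stages in every group: they summed to 6079.8 to 6886 CPM in DeltaMxCre ETP and to 5398 to 6220.5 CPM in AntiNRR DN3. Krt5, Krt8, Krt14 and Foxn1, defining genes of thymic epithelium, were at 0 in all 24 pI-pC and antibody libraries, a measurement given because epithelial cells also express Cdh1. The other 2 of the 6 epithelial markers, Psmb11 and Ccl25, were detected, and the list summed to between 0.0483 and 18.8 CPM in these libraries. Mesenchyme markers were at 0 in MxCre ETP and at 1.25 to 5.95 CPM in DeltaMxCre ETP, B cell markers summed to at most 5.33 CPM and myeloid markers to at most 64.0 CPM in any library. Cd4, Cd8a and Cd8b1, the co-receptor genes of later thymocytes, summed to at most 67.3 CPM in any pI-pC or antibody library and to at most 1168 CPM in the tamoxifen ones. With bulk RNA, a change in the mix of cells cannot be told apart from a change of RNA per cell.

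As background, Notch1 is the receptor that directs progenitors in the thymus into the T lineage: ligand binding leads to its cleavage, and the freed intracellular part enters the nucleus and activates targets together with Rbpj. The anti-NRR antibody holds the receptor in its uncleaved form. Zmiz1 is a PIAS-like protein that binds Notch1 and acts as its cofactor at a subset of targets. Bst1 (CD157) is a surface enzyme of NAD metabolism, an ADP-ribosyl cyclase. Cdh1 is E-cadherin, a calcium-dependent adhesion protein. Capn5 is a calpain, a calcium-activated cysteine protease that lacks the calmodulin-like domain of the classical calpains. Spats2 is an RNA-binding protein first described in spermatogenesis.

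**Figure D1:**
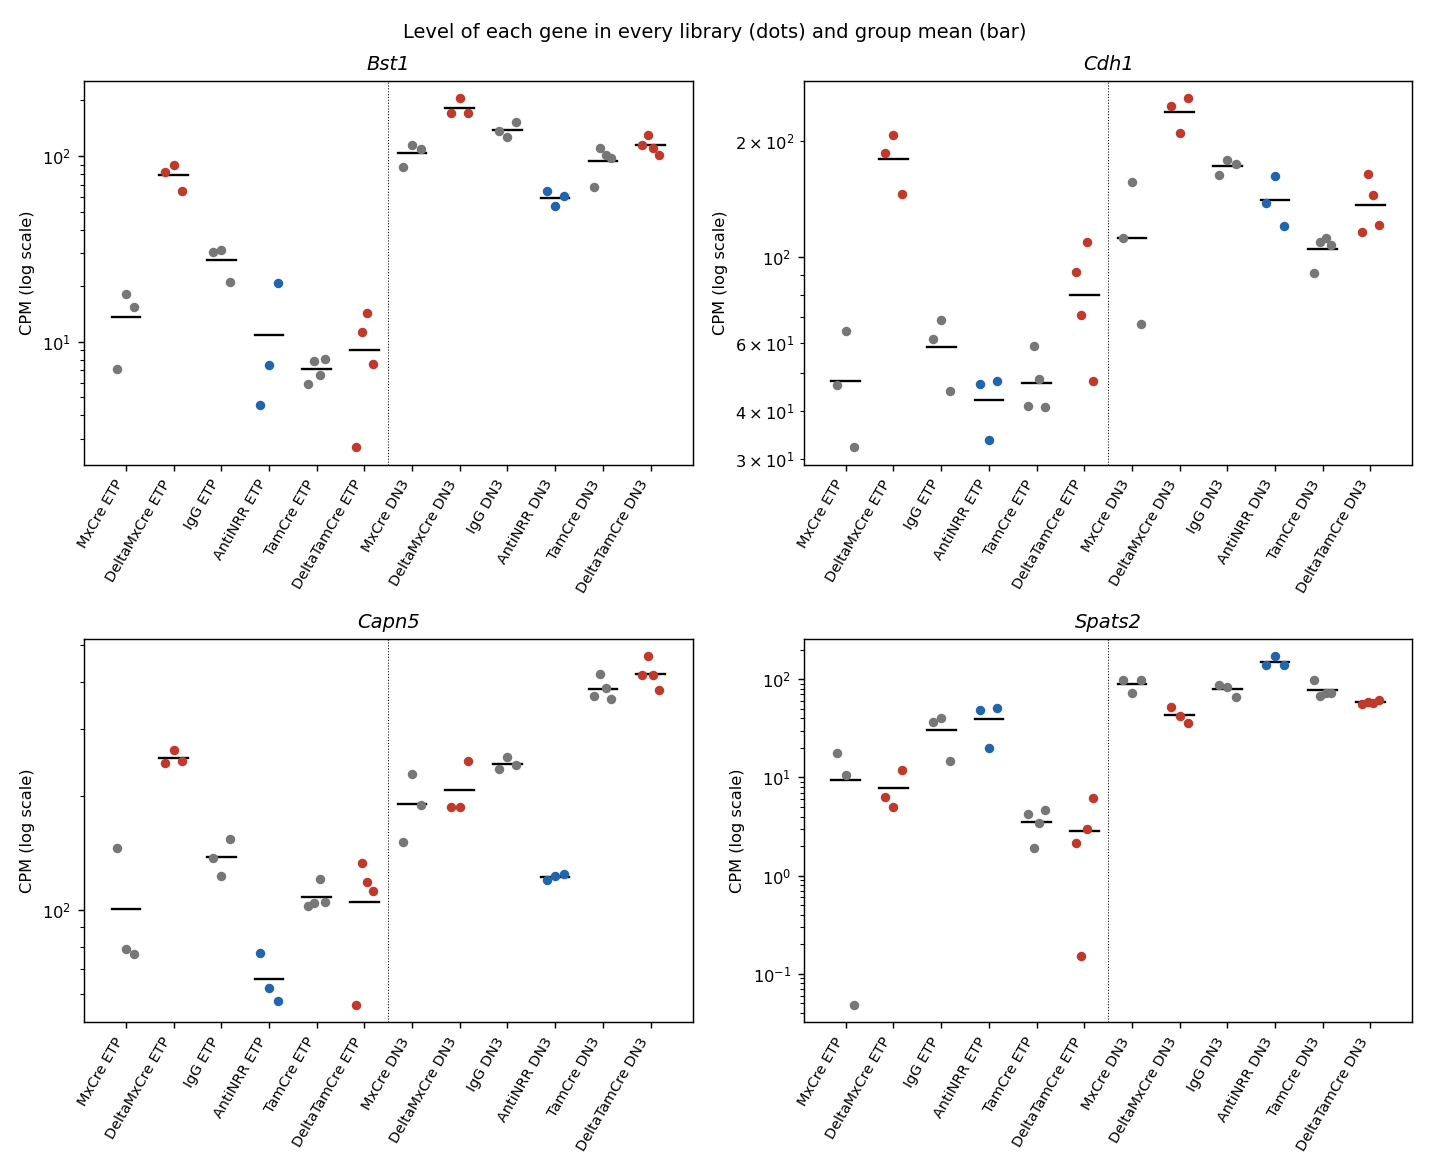
The level of each gene in CPM (log scale) in every library, one dot per library, with a bar at the group mean. Grey dots are controls, red dots Zmiz1-deleted and blue dots antibody-treated libraries, and a dotted line parts ETP from DN3. Bst1 in DeltaMxCre ETP (65.1 to 89.0 CPM) lies above MxCre ETP (7.11 to 18.1), whereas Spats2 in DeltaMxCre DN3 (35.8 to 52.7) lies below MxCre DN3 (72.2 to 98.9).

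Bst1 (chromosome 5, 43818885 to 43843986, plus strand, GRCm38) had the most complete opposite pattern: its groups were apart in all 4 comparisons that chose it. In ETP it was at 7.11, 18.1 and 15.4 CPM in the MxCre libraries and at 82.0, 89.0 and 65.1 CPM in DeltaMxCre. Every deleted library was above every control, with group means of 78.7 ± 12.3 and 13.5 ± 5.72 (SD, n = 3), a 5.83-fold difference. Under the antibody the order in ETP was the other way round, with 30.5, 31.3 and 20.8 CPM in IgG libraries and 4.57, 7.48 and 20.6 CPM in AntiNRR libraries. The third AntiNRR library lay just under the lowest IgG library, so the groups were apart by little. The log2 fold change was -1.34 (SE 0.478), and -2.19 without that library.

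In DN3, Bst1 was at 87.7, 115 and 109 CPM in MxCre and at 169.8, 204 and 170.5 CPM in DeltaMxCre, a log2 fold change of 0.81 (SE 0.143). IgG DN3 libraries had 137, 127 and 152 CPM and AntiNRR libraries 64.6, 53.9 and 60.5 CPM, a log2 fold change of -1.23 (SE 0.133). All 6 perturbed DN3 libraries stood outside the range of their controls, on opposite sides. The log2 fold change of the deletion was 2.54 (SE 0.368) in ETP, and whether it differs between the stages was not tested. Non-overlap is common in these comparisons and was part of the choice of the genes: among all genes tested, 6.1% were higher without overlap in pI-pC ETP, 11% in pI-pC DN3, and 5.96% and 11% were lower without overlap under the antibody in ETP and DN3. The reads of Bst1 may share a stretch with Fbxl5, a gene on the other strand whose GENCODE model overlaps it. In the RefSeq annotation Fbxl5 and Bst1 lie 36731 bases apart. The log2 fold changes of Fbxl5 were 0.53 (SE 0.226) in pI-pC ETP, 0.40 (SE 0.153) in pI-pC DN3 and -0.25 (SE 0.113) in antibody DN3. In antibody ETP its value was 0.24 (SE 0.178), on the other side of 0 from Bst1.

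Cdh1 (chromosome 8, 106603351 to 106670246, plus strand) was far higher after pI-pC deletion and only slightly lower after the antibody. MxCre ETP libraries held 46.7, 64.2 and 32.1 CPM and DeltaMxCre ETP libraries 187, 208 and 146 CPM, a log2 fold change of 1.92 (SE 0.282). MxCre DN3 libraries were spread over 112, 157 and 67.0 CPM, and the DeltaMxCre DN3 libraries at 246, 209.6 and 258 CPM were all above them (1.09, SE 0.267). Neither stage had an overlap between deleted and control libraries.

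The antibody left smaller differences of Cdh1. IgG ETP libraries had 61.5, 68.9 and 45.0 CPM and AntiNRR ETP libraries 46.8, 33.5 and 47.7 CPM, with overlap and a log2 fold change of -0.45 (SE 0.246). In DN3 the IgG libraries had 164, 179 and 175 CPM and the AntiNRR libraries 139, 163 and 121 CPM, a log2 fold change of -0.31 (SE 0.119). There the highest antibody library reached to just below the lowest IgG library. In both stages the antibody difference of Cdh1 was at most 1.37-fold, against 3.78-fold in ETP and 2.13-fold in DN3 for the deletion.

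Capn5 (chromosome 7, 98121559 to 98178274, minus strand) moved in opposite directions in ETP and was apart from its controls under the antibody alone in DN3. Its level was 146, 78.7 and 76.5 CPM in MxCre ETP and 244, 265 and 247 CPM in DeltaMxCre ETP, a log2 fold change of 1.33 (SE 0.263), and 1.71 without the high first control. The antibody took ETP from 137, 123 and 154 CPM in IgG to 77.0, 62.3 and 57.6 CPM (-1.07, SE 0.187). The deleted and antibody-treated ETP libraries were each apart from their controls.

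In DN3, Capn5 was at 151, 229 and 189 CPM in MxCre and 187, 187 and 246 CPM in DeltaMxCre, with overlap and a log2 fold change of 0.13 (SE 0.162). The AntiNRR DN3 libraries held 120.0, 123 and 124 CPM against 235, 253 and 241 CPM in IgG (-1.003, SE 0.104). Capn5 thus met the opposite pattern in ETP and not in DN3. The deleted ETP libraries lay above all 3 MxCre DN3 libraries, although Capn5 was otherwise higher in control DN3 than in control ETP.

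Omp, the olfactory marker protein gene, lies within the Capn5 gene on the same strand (chromosome 7, 98143359 to 98145502), so reads of the 2 genes may not be separable. It was at 0.462, 0.448 and 0.579 CPM in MxCre ETP and at 12.0, 7.18 and 19.6 CPM in DeltaMxCre ETP, and went from 9.48 ± 1.70 in IgG DN3 to 3.74 ± 1.18 CPM in AntiNRR DN3 (SD, n = 3). These differences had the direction of Capn5 at a small part of its level. Neither passed edgeR's quasi-likelihood test (adjusted p = 0.252 and 0.108). In pI-pC DN3, Omp was at 6.11 ± 3.14 CPM in MxCre and 14.9 ± 8.76 CPM in DeltaMxCre, with overlap. Its log2 fold change there was 1.29 (SE 0.477), and that of Capn5 was 0.13 (SE 0.162). In antibody ETP, Omp also overlapped (-0.88, SE 1.22). The part of Omp in the Capn5 values was not tested.

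Spats2 (chromosome 15, 99125916 to 99213215, plus strand) had the mirror pattern, lower after deletion and higher after the antibody, in DN3, while its groups overlapped in ETP. MxCre DN3 libraries held 98.9, 72.2 and 97.3 CPM and DeltaMxCre DN3 libraries 52.7, 42.2 and 35.8 CPM, a log2 fold change of -1.04 (SE 0.182). Antibody-treated DN3 libraries had 140.4, 171 and 139 CPM against 86.8, 83.3 and 65.6 CPM in IgG, a log2 fold change of 0.92 (SE 0.135). Both perturbed groups were apart from their controls, where 10.5% of all genes tested were lower without overlap in the deletion and 11.4% higher without overlap under the antibody.

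In ETP Spats2 was low and scattered. The MxCre libraries had 17.9, 10.5 and 0.0483 CPM (309, 165 and 1 counts) and the DeltaMxCre libraries 6.26, 5.05 and 12.0 CPM, with overlap and a log2 fold change of -0.30 (SE 1.14). Leaving out one library at a time moved this value between -0.88 and 0.54, so no direction can be given. IgG ETP libraries had 37.0, 40.1 and 14.6 CPM and AntiNRR ETP libraries 48.2, 19.9 and 50.8 CPM, also with overlap (0.38, SE 0.409). The same leave-one-out values ran from 0.03 to 0.70.

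**Figure D2:**
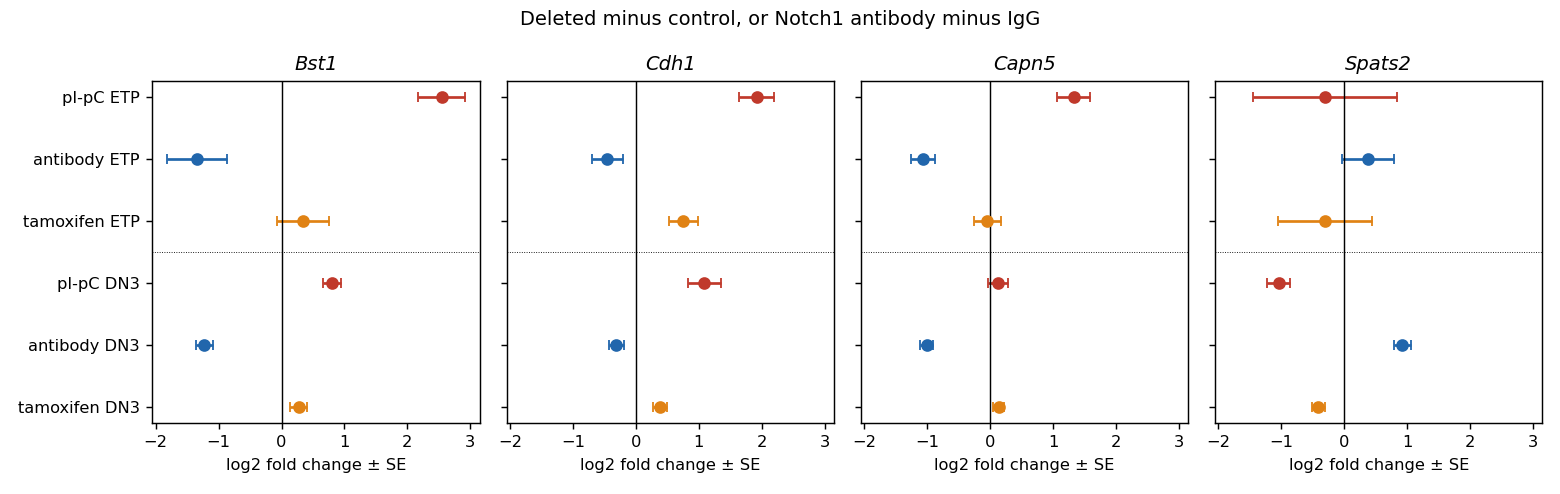
The log2 fold change of each gene (deleted minus control, or antibody minus IgG) with its standard error in the 6 perturbation comparisons, ETP above the dotted line and DN3 below it. Red marks pI-pC deletion, blue the antibody and orange tamoxifen deletion. Bst1 lies at 2.54 and -1.34 in ETP and at 0.81 and -1.23 in DN3, and Spats2 in DN3 at -1.04 and 0.92.

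Opposite movement without overlap in both perturbations was found for 55 of 11759 genes tested in ETP (0.468%, up in the deletion and down under the antibody) and 47 (0.400%) the other way round. In DN3 it was found for 93 of 12275 genes (0.758%) and 108 genes (0.880%). Bst1 and Capn5 are among the 55 in ETP, Bst1 and Cdh1 among the 93 in DN3, and Spats2 among the 108. The 2 signs were opposite, whatever the size, for 49.1% of genes in ETP and 44.1% in DN3.

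The acute tamoxifen deletion asks whether the 4 genes move within 44 hours of the injection. None of the 4 passed edgeR's quasi-likelihood test with Benjamini-Hochberg adjustment over all genes at either stage, where 0% of 12924 genes passed in ETP and 0.0827% of 13298 (11 genes) in DN3. At an unadjusted p under 0.05, 640 genes (4.95%) in ETP and 2069 (15.6%) in DN3 would be counted. Cdh1 is one of the 640, and Cdh1 and Spats2 are among the 2069. DESeq2 called 8 genes in ETP, none of them among the 4, and 415 in DN3, one of which was Spats2 (adjusted p = 0.0260).

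In tamoxifen DN3, Cdh1 and Spats2 leaned as they did in the pI-pC deletion, each without overlap. Cdh1 was at 91.2, 109.5, 112 and 108 CPM in TamCre and at 117, 165, 145 and 121 CPM in DeltaTamCre. Every deleted library was above every control, by a log2 fold change of 0.38 (SE 0.112, edgeR adjusted p = 0.171). Spats2 was at 97.1, 68.0, 72.3 and 71.8 CPM in TamCre and at 55.6, 58.2, 57.6 and 60.7 CPM in DeltaTamCre. All 4 deleted libraries were lower than all 4 controls, by a log2 fold change of -0.41 (SE 0.105, edgeR adjusted p = 0.129). Over all genes, 4.38% were higher and 5.81% lower without overlap in this comparison.

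Bst1 and Capn5 overlapped in tamoxifen DN3. Bst1 had 68.3, 111, 102 and 97.1 CPM in TamCre and 115, 129.8, 111 and 101 CPM in DeltaTamCre, a log2 fold change of 0.27 (SE 0.136, edgeR adjusted p = 0.365). Capn5 had 366, 418, 385 and 361 CPM against 417, 467, 417 and 379.5 CPM (0.13, SE 0.084, edgeR adjusted p = 0.469). Cd4, Cd8a and Cd8b1 summed to 21.8 to 66.0 CPM in TamCre DN3 and 24.6 to 113 CPM in DeltaTamCre DN3, and their part in these values was not tested.

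In tamoxifen ETP, Cdh1 had the largest difference of the 4 in units of its error. It was at 41.1, 58.8, 48.2 and 41.0 CPM in TamCre and at 91.5, 70.7, 109 and 47.9 CPM in DeltaTamCre. Of the deleted libraries, 3 exceeded all controls and the fourth did not, for a log2 fold change of 0.76 (SE 0.229, edgeR adjusted p = 0.907).

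Bst1 in tamoxifen ETP had 5.88, 7.84, 6.58 and 8.07 CPM in TamCre and 2.69, 11.3, 14.3 and 7.60 CPM in DeltaTamCre (0.34, SE 0.413, edgeR adjusted p = 0.923). Capn5 had 103, 104, 120.4 and 105 CPM against 56.1, 133, 118 and 112 CPM (-0.04, SE 0.217, edgeR adjusted p = 0.986). The first deleted library held the lowest Bst1 and Capn5 of its group, and without it the values were 0.63 for Bst1 and 0.16 for Capn5. Without the third deleted library the Bst1 value was 0.02. Spats2 had 4.26, 1.91, 3.45 and 4.61 CPM against 2.16, 0.153, 2.97 and 6.17 CPM (-0.30, SE 0.74, edgeR adjusted p = 0.961), and 0.084 without the second deleted library, which held 3 counts. Cd4, Cd8a and Cd8b1 summed to 82.9 to 553 CPM in TamCre ETP and 54.5 to 1168 CPM in DeltaTamCre ETP. Dendritic markers summed to 9.38 to 12.2 CPM in TamCre ETP and 19.3 to 34.6 CPM in DeltaTamCre ETP. Their part in these values was not tested.

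All 4 genes were higher in DN3 than in ETP of control mice. This comparison uses the same MxCre and IgG libraries as the choice of the genes. A low value in MxCre ETP, for example, would favour both a choice as higher after deletion and a difference between the stages, so the tests below are no independent support. In the IgG controls all 4 rose in edgeR's quasi-likelihood test, where 14.7% of 12720 genes passed and 7.12% were higher in DN3. Bst1 rose from 27.5 ± 5.83 to 138 ± 12.5 CPM, a log2 fold change of 2.33 (SE 0.181, edgeR adjusted p = 5.89e-07). Cdh1 rose from 58.4 ± 12.2 to 173 ± 8.06 CPM (1.56, SE 0.160, edgeR adjusted p = 1.10e-05). Each was higher in 3 of 3 DN3 libraries than in any IgG ETP library, and so were the other two.

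Capn5 rose from 138 ± 15.5 to 243 ± 9.24 CPM in the IgG controls (0.82, SE 0.126, edgeR adjusted p = 0.000396). Spats2 rose from 30.5 ± 13.9 to 78.6 ± 11.4 CPM (1.37, SE 0.305, edgeR adjusted p = 0.01002). With the spread estimated over all 8 groups of the table, Spats2 no longer passed (adjusted p = 0.348).

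In the MxCre controls the same order held and fewer genes passed. Only Bst1 rose in the test, from 13.5 ± 5.72 to 104 ± 14.2 CPM (2.91, SE 0.347, edgeR adjusted p = 0.00276), where 2.99% of 12399 genes passed and 0.895% were higher in DN3. Cdh1 was at 47.7 ± 16.0 and 112 ± 44.8 CPM (1.20, SE 0.349, edgeR adjusted p = 0.109) and Capn5 at 100.3 ± 39.4 and 189.8 ± 38.7 CPM (0.89, SE 0.289, edgeR adjusted p = 0.150). Spats2 was at 9.49 ± 8.95 and 89.4 ± 15.0 CPM (3.20, SE 1.01, edgeR adjusted p = 0.140), and passed without the third MxCre ETP library (2.63, adjusted p = 0.00203). With DESeq2, Cdh1 passed as well (adjusted p = 0.0245), and with the spread estimated over all 8 groups so did Cdh1 (0.00146), Capn5 (0.00211) and Spats2 (0.0148). Capn5 also passed in edgeR without the first MxCre ETP library (1.28, adjusted p = 0.0182). None of the 4 overlapped between the stages in either control, against 13.3% of all genes that were higher in DN3 without overlap in MxCre and 16.8% in IgG.

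Set against the MxCre DN3 libraries, 3 of the genes in DeltaMxCre ETP reached their range or exceeded it. Bst1 in DeltaMxCre ETP (65.1 to 89.0 CPM) overlapped MxCre DN3 (87.7 to 115 CPM) through 1 library and lay wholly below IgG DN3 (127 to 152 CPM). Cdh1 in DeltaMxCre ETP (146 to 208 CPM) overlapped MxCre DN3 (67.0 to 157 CPM), and Capn5 (244 to 265 CPM) exceeded it (151 to 229 CPM). Spats2, which was also higher in DN3, stayed at 5.05 to 12.0 CPM in DeltaMxCre ETP, below MxCre DN3 (72.2 to 98.9 CPM). The summed DN3 markers Ptcra, Il2ra, Rag1, Notch3 and Cd3e had the directions of the 3 genes in ETP. MxCre ETP libraries ran from 2477 to 3258 CPM and the deleted ones from 6079.8 to 6886. IgG ETP ran from 2859.6 to 4333 and AntiNRR ETP from 639.8 to 1917, groups between which Cdh1 overlapped. In DN3 the sum overlapped in the deletion, at 7175 to 9683 CPM in MxCre and 7773 to 9687 in DeltaMxCre. Bst1 and Cdh1 did not overlap there. Il2ra alone, also among the genes most like Bst1, made up the largest part of the pI-pC ETP sums. Its level was 1972 ± 341 CPM in MxCre ETP and 4732 ± 251 CPM in DeltaMxCre ETP. With the antibody it went from 2158 ± 369 to 573 ± 400 CPM in ETP. The progenitor markers were at 686 to 1009.7 CPM in MxCre ETP and at 351 to 429.5 CPM in DeltaMxCre ETP. Of the DN3 markers, 3 are also Notch targets, and the part of either list in the values of the 4 genes was not tested.

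The order of the levels over the 8 groups of the pI-pC and antibody table differed by gene. Bst1 ran from AntiNRR ETP (10.9 ± 8.54 CPM) and MxCre ETP (13.5 ± 5.72), which did not differ beyond their spread, through IgG ETP (27.5 ± 5.83), AntiNRR DN3 (59.7 ± 5.43) and DeltaMxCre ETP (78.7 ± 12.3) to MxCre DN3 (104 ± 14.2), IgG DN3 (138 ± 12.5) and DeltaMxCre DN3 (182 ± 19.7). Of the groups from IgG ETP on, DeltaMxCre ETP and MxCre DN3 overlapped, whereas the other neighbours in this order were apart. For Cdh1 the lowest 3 groups, AntiNRR ETP, MxCre ETP and IgG ETP (42.7 ± 7.94, 47.7 ± 16.0 and 58.4 ± 12.2 CPM), overlapped. MxCre DN3 (112 ± 44.8), AntiNRR DN3 (141 ± 21.1), IgG DN3 (173 ± 8.06) and DeltaMxCre ETP (180.4 ± 31.4) followed, and DeltaMxCre DN3 was the highest (238 ± 25.4). Capn5 was lowest in AntiNRR ETP (65.7 ± 10.1 CPM), followed by MxCre ETP, AntiNRR DN3 and IgG ETP (100.3 ± 39.4, 122 ± 2.17 and 138 ± 15.5) and by MxCre DN3 and DeltaMxCre DN3 (189.8 ± 38.7 and 207 ± 34.2), and was highest in DeltaMxCre ETP and IgG DN3 (252 ± 11.1 and 243 ± 9.24), which overlapped. Spats2 was lowest in DeltaMxCre ETP and MxCre ETP (7.75 ± 3.69 and 9.49 ± 8.95 CPM), which overlapped, followed by IgG ETP and AntiNRR ETP (30.5 ± 13.9 and 39.6 ± 17.1), DeltaMxCre DN3 (43.6 ± 8.51) and the DN3 controls (78.6 ± 11.4 in IgG and 89.4 ± 15.0 in MxCre), and highest in AntiNRR DN3 (150.2 ± 18.4). The tamoxifen libraries were made with other kits, and their levels are not set against these.

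The relatives of each gene were read from the same fits. Of 11 other genes of NAD and ADP-ribose metabolism, 10 of them in the tables, none passed edgeR's test in any comparison run, with medians of 0.05 in pI-pC ETP and -0.19 in antibody DN3, against -0.03 and -0.01 over all genes. Cd38, the paralogue of Bst1 and its neighbour, was at most 7.99 CPM in any pI-pC or antibody library and overlapped in 3 of the 4 comparisons. In pI-pC DN3 it was at 0.69 ± 0.83 CPM in MxCre and 4.66 ± 2.65 CPM in DeltaMxCre, without overlap.

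Of 12 other cadherin and catenin adhesion genes, 1 fell in pI-pC DN3, where 1.44% of genes passed, and 1 fell in antibody DN3, where 5.61% did. The first was Ctnnd1, p120-catenin, which holds cadherins at the membrane, from 5.97 ± 1.62 to 0.619 ± 0.409 CPM. The second was Mllt4 (afadin), an adherens junction adaptor, from 75.0 ± 12.2 to 5.47 ± 2.57 CPM. None passed in pI-pC ETP, antibody ETP or either tamoxifen comparison. In pI-pC ETP, where 0.0416% of genes passed, the median of the list was -0.47, against -0.03 over all genes. Jup (-1.93), Ctnnd1 (-1.67), Ctnna1 (-0.68), Ctnnb1 (-0.27) and Cdh17 (at 0 CPM after deletion) were lower there without overlap, as were 6.46% of all genes. Mllt4 (2.18) was higher without overlap. Cdh2 and Cdh3, the closest classical cadherins listed, stayed at or under 1.57 CPM in every library.

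Between the stages, Epcam, an epithelial adhesion protein also found on thymocytes, was at 15.5 to 22.4 CPM in IgG ETP and rose to 69.1 to 77.7 CPM in IgG DN3 (1.86, edgeR adjusted p = 1.79e-05). Mllt4 rose from 6.39 ± 3.05 to 75.0 ± 12.2 CPM (3.57, edgeR adjusted p = 1.35e-06). Jup, plakoglobin, fell from 20.9 ± 2.58 to 5.70 ± 1.06 CPM (-1.88, edgeR adjusted p = 0.00159). Itgae, the integrin chain that binds E-cadherin, rose from 16.1 ± 8.03 to 41.6 ± 7.85 CPM (1.37, edgeR adjusted p = 0.0131). Epcam, Mllt4 and Jup also passed in the MxCre controls, in the same directions. Itgae overlapped there and its mean was lower in DN3, at 32.2 ± 35.2 CPM in MxCre ETP and 23.9 ± 15.2 CPM in MxCre DN3.

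Of 10 other calpain genes, 9 were in the tables. The only one to pass was Capns1, the small subunit of the classical calpains, which fell from IgG ETP to IgG DN3 (102 ± 5.21 to 69.8 ± 14.9 CPM, -0.54, edgeR adjusted p = 0.0376). Capn1 and Capn2, the large subunits of the classical calpains, had log2 fold changes between -0.48 and 0.33 in the pI-pC and antibody comparisons. The values of Capn5 there ran from -1.07 to 1.33. In pI-pC ETP, Capn3 was higher without overlap, from 2.16 ± 1.38 to 6.46 ± 1.62 CPM (1.57, SE 1.18), as were 6.1% of all genes. Capns1 was lower without overlap in that comparison (-0.35, SE 0.228), as were 6.46% of all genes. Spats2l, the paralogue of Spats2, was at 0 in all 3 IgG ETP libraries and rose to 7.21 to 8.79 CPM in IgG DN3 (edgeR adjusted p = 0.000159). It overlapped in all 3 DN3 perturbations, the pI-pC, antibody and tamoxifen ones, where Spats2 did not.

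Several Notch targets had the directions of Bst1, whereas others did not in pI-pC DN3. Dtx1, an E3 ligase gene and a direct Notch1 target, was at 8.30 to 28.6 CPM in MxCre ETP and 145 to 217 CPM in DeltaMxCre ETP, and fell from 156 to 185 CPM in IgG DN3 to 4.81 to 15.3 CPM in AntiNRR DN3. Of 10 such targets, 3 rose in pI-pC ETP (Dtx1, Ptcra and Il2ra), where 0.0416% of genes passed, and 2 in pI-pC DN3 (Dtx1 and Trib2), where 1.44% passed. Under the antibody 6 fell in DN3 (Dtx1, Hes1, Notch3, Ptcra, Il2ra and Myc), where 5.61% passed, and 0 in ETP, where 0% of genes passed edgeR's test and 687 (5.47%) had an unadjusted p under 0.05. In pI-pC DN3, Myc (-0.84, SE 0.287), Notch3 (-0.35, SE 0.159), Hes5 (-0.12) and Heyl (-0.10) leaned lower, each with overlap. Myc and Notch3 thus leaned the same way in that deletion as under the antibody in DN3. The median of the list was 0.86 in pI-pC ETP, 0.18 in pI-pC DN3, -1.12 in antibody ETP and -0.78 in antibody DN3. None of the 10 passed in either tamoxifen comparison, where the medians were 0.36 and 0.14.

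Over the 12 DN3 libraries of the pI-pC and antibody table, Bst1 and Spats2 ran against each other, with a Pearson r of -0.94 of log2(CPM + 1). Bst1 and Capn5 had an r of 0.82, Capn5 and Spats2 -0.72, Cdh1 and Spats2 -0.62, Bst1 and Cdh1 0.53, and Cdh1 and Capn5 0.36. Over the 12 ETP libraries Bst1, Cdh1 and Capn5 went together (0.76 to 0.87) and Spats2 had values from -0.28 to -0.15 with them. These libraries share their groups, and the choice of the genes fixes part of these values, so they are descriptions only.

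The genes most like each member were ranked among 8889 genes by the lower of their r over 12 ETP and over 12 DN3 libraries. These are the pI-pC and antibody libraries whose values also chose the members. Shared directions in those comparisons are therefore built into the ranking and are descriptions only. Pld4 (0.91), Dtx1 (0.89), Gpr132 (0.85), Il2ra (0.85) and Cdh23 (0.84) were most like Bst1. Dgka (0.79), Scin (0.78), Ablim1 (0.76), B4galnt2 (0.76) and Dnajc6 (0.75) were most like Cdh1. Il2ra encodes a chain of the interleukin-2 receptor and Cdh23 an atypical cadherin, while Dgka is a diacylglycerol kinase and Scin an actin-severing protein.

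Tmem131 (0.88), Mllt4 (0.88), Notch1 itself (0.86), Atp8a1 (0.85) and Gfra1 (0.84) were most like Capn5. Notch1 was at 1269.5 ± 402 CPM in MxCre ETP and 2047 ± 42.4 CPM in DeltaMxCre ETP, and went from 1514 ± 133 to 828 ± 107 CPM with the antibody in ETP. Satb1 (0.85), Ivd (0.83), Fndc1 (0.82), Agtrap (0.75) and Sipa1l1 (0.75) were most like Spats2. Satb1 is a chromatin organiser of thymocytes, and it was at 632 ± 1.39 CPM in DeltaMxCre DN3, 701 ± 61.9 in MxCre DN3, 826 ± 49.2 in IgG DN3 and 1219.9 ± 78.0 in AntiNRR DN3. The third MxCre ETP library was the lowest in Spats2. Without it, r over the ETP libraries went from 0.75 to 0.58 for Agtrap and from 0.76 to 0.34 for Sipa1l1. For Ivd r went from 0.86 to 0.75 and for Fndc1 from 0.83 to 0.76, and for Satb1 it stayed at 0.93.

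**Figure D3:**
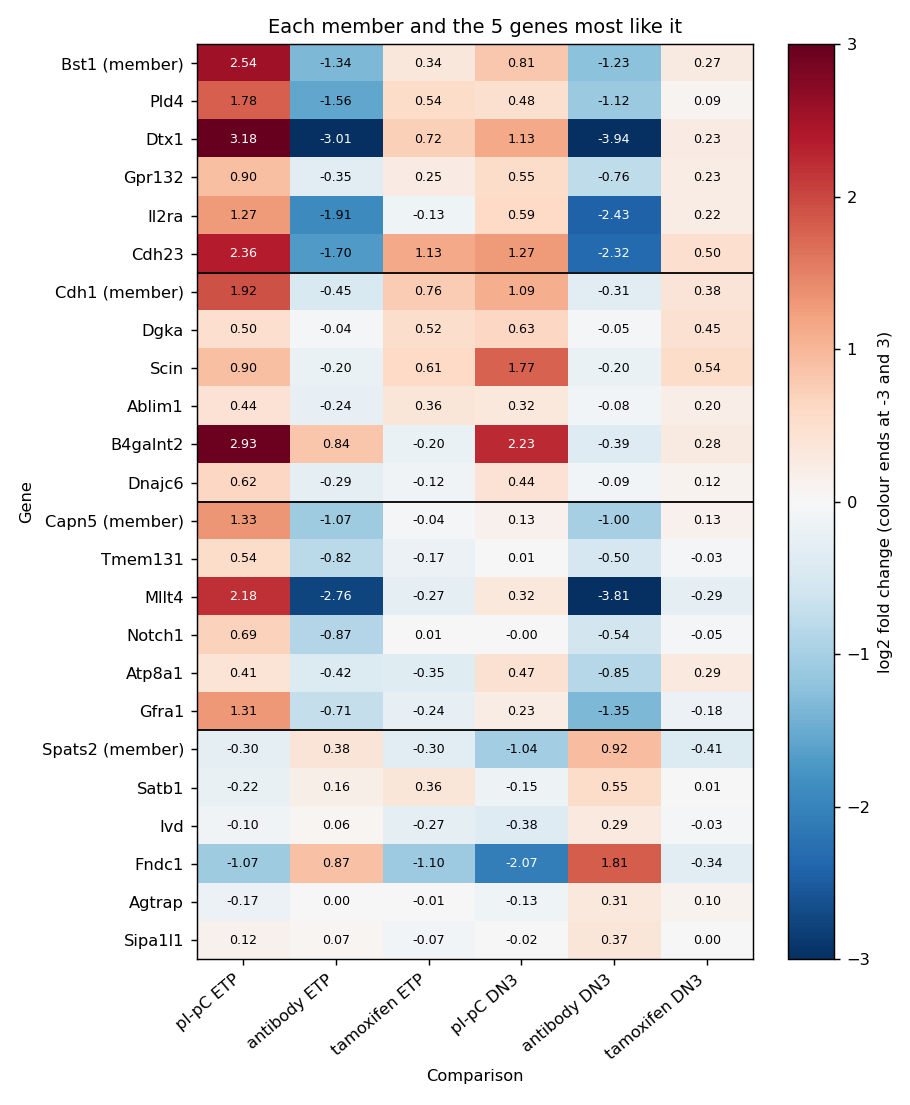
The log2 fold change of each member and of the 5 genes most like it (rows) in the 6 perturbation comparisons (columns), printed in each cell, with colour from blue (lower) to red (higher) that ends at -3 and 3. The genes most like Bst1 share its signs in pI-pC and antibody columns, Dtx1 with 3.18, -3.01, 1.13 and -3.94, while B4galnt2 beside Cdh1 is positive in antibody ETP (0.84). The ranking used these same libraries, so shared signs in pI-pC and antibody columns are built into it.

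The neighbours of the 4 genes were taken by position among genes with a count entry for every library, the nearest 2 on each side, 16 in all. A gene without such an entry was passed over. Of the 16, 10 were tested in at least 1 pI-pC or antibody comparison. Kcnh3, a voltage-gated potassium channel gene that begins 11302 bases beyond Spats2 in the RefSeq annotation (GENCODE position chromosome 15, 99224861 to 99242817, plus strand), was the only one called. The call was in antibody DN3, where 5.61% of all genes passed. The shares were 1.44% in pI-pC DN3, 0.0416% in pI-pC ETP and 0% in antibody ETP. Kcnh3 was at 24.6, 27.2 and 22.6 CPM in IgG DN3 and 47.4, 52.5 and 51.4 CPM in AntiNRR DN3, a log2 fold change of 1.01 (SE 0.196, edgeR adjusted p = 0.00218). In the deletion it was at 15.0, 20.7 and 6.97 CPM in MxCre DN3 and 6.06, 3.58 and 2.84 CPM in DeltaMxCre DN3, without overlap (-1.78, SE 0.429, edgeR adjusted p = 0.0519). Both directions are those of Spats2, and r between the 2 genes was 0.86 over the 12 DN3 libraries and 0.63 over the 12 ETP libraries. The values of these libraries also chose Spats2, so the shared directions and r are descriptions only. In DN3 and ETP, r was 0.52 and 0.66 for Omp with Capn5. It was 0.52 and 0.38 for Fbxl5 with Bst1, and 0.35 and -0.20 for Cd38 with Bst1.

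The acute deletion did not part the levels of Kcnh3, at 15.0 to 25.4 CPM in TamCre DN3 and 15.3 to 19.1 CPM in DeltaTamCre DN3 (-0.26, edgeR adjusted p = 0.433). Mcrs1, the next gene beyond Kcnh3, which overlaps it on the other strand, had log2 fold changes of -0.07 in pI-pC DN3 and -0.20 in antibody DN3. Whether reads that run past the end of Spats2 enter the Kcnh3 counts was not tested.

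**Figure D4:**
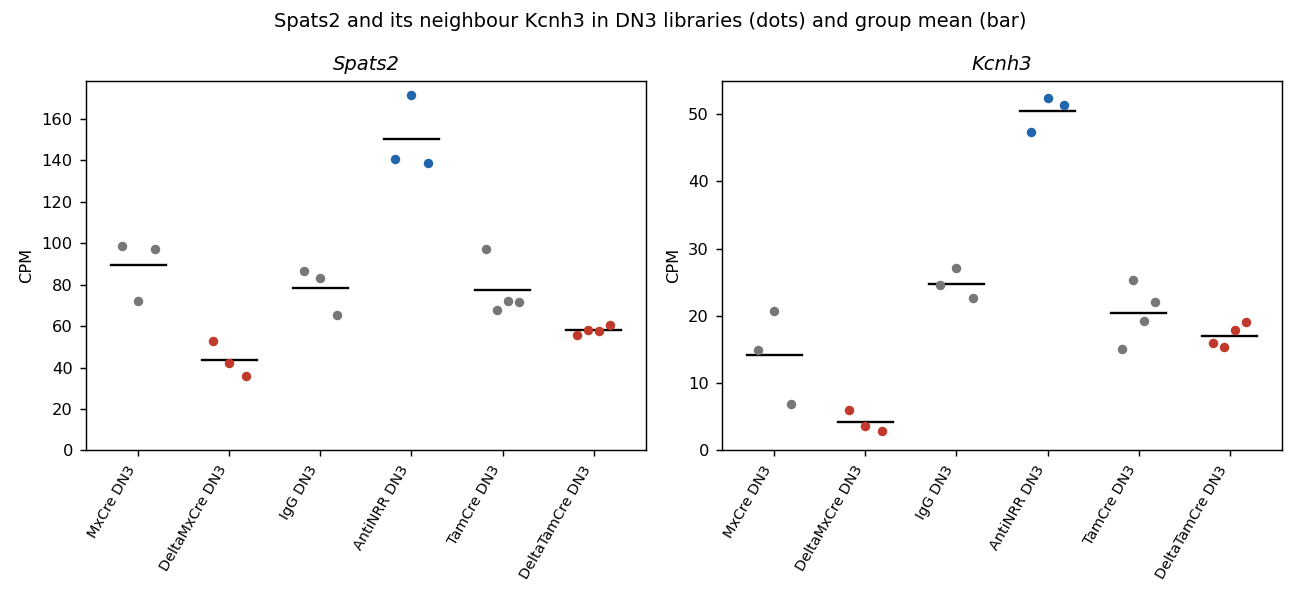
Spats2 (left) and its neighbour Kcnh3 (right) in CPM in the DN3 libraries, one dot per library with a bar at the group mean. Grey marks controls, red Zmiz1-deleted and blue antibody-treated libraries. AntiNRR DN3 is the highest group for both genes (139 to 171 CPM for Spats2 and 47.4 to 52.5 CPM for Kcnh3) and DeltaMxCre DN3 the lowest.

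A promoter window from RefSeq (GRCm38.p6) was at hand for Spats2, 1 of the 4 genes. In GENCODE it lies within exons of longer Spats2 transcripts, so it may not be the promoter from which these reads come. Its 250 bases before the start held, on either strand, no match of TGGGAA, the core bound by Rbpj, which is found in 21.6% of 32851 such windows. It held none of TGTGGT (Runx, 14.0% of windows), CANNTG (E-box, 66.2%) or CTTTGA (Tcf7 and Lef1, 13.8%) either.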

How the data were processed

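RNA of sorted ETP and DN3 thymocytes was sequenced by the authors in 40 libraries. Per the labels' protocols, pI-pC and antibody libraries used 10 ng RNA with RiboGone and SMARTer Ultra low kits (16 PCR cycles), tamoxifen DN3 libraries 100 ng with TruSeq mRNA v2 (12 cycles) and tamoxifen ETP libraries 1 ng with the SMARTer Stranded Pico kit (15 cycles), so levels were not compared between the 3 tables. Cuffdiff 2.1.1, Cufflinks, Bowtie2 2.1.0.0, TopHat2 2.0.9 and FastQC 0.10.0 are named with the mm10 build, per the submitters' processing notes, without their roles. The annotation and the use of strand are not given in the sources used here. The authors deposited estimated counts per gene, of which 0.712% to 1.19% were not whole (tolerance 0.01); how the estimate was made is not given in the sources used here. They were rounded for the tests.

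Each comparison was fitted over its own 2 groups with edgeR 4.0.16 (R 4.3.3): quasi-likelihood test with robust dispersion, TMM, filterByExpr (minimum count 10, total 15), prior count 0.125 and Benjamini-Hochberg adjusted p under 0.05. All 4 genes passed the filter in every comparison. SE is the log2 fold change divided by the root of F. CPM are TMM-scaled within a table. DESeq2 1.42.0, its size factors in edgeR, no filter, a replicate block, a spread shared by 8 groups (stage) and each library left out were the alternatives. The scripts were tested on simulated data. Labels name mice per group but do not tie libraries to mice, so p-values measure the spread between libraries. No 2 libraries of a group agreed within sampling noise.

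The members and the gene lists were chosen with earlier results of these data known. Named were the 4 members, Zmiz1, Dtx1, list genes called in a comparison, the nearest paralogues, the 5 genes most like each member (log2(CPM + 1), mean of at least 5 CPM in each stage) and the nearest neighbours by position among genes with a count entry for every library. Omp, Fbxl5, Cd38, Mcrs1, Ctnna1, Ctnnb1, Cdh17, Capn3, Hes5 and Heyl were singled out after their values were seen. Coordinates are GENCODE M21 (GRCm38). No sequence is printed. Later thymocytes are described by the sum of Cd4, Cd8a and Cd8b1, chosen after seeing the data, and 1 further marker of that list is not reported here.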

Additional observations from a re-analysis of the deposited data

Results flagged for a closer look

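The 4 genes were each checked in the 4 tamoxifen groups of 4 libraries, 16 checks that share libraries, and 2 found a library whose gap to the nearest other, divided by the range of the group, was above the 95% critical value; chance gives about 1 in 20. Capn5 in the third TamCre ETP library was at 120.4 CPM, with the other 3 at 103 to 105 CPM (gap over range 0.862). Spats2 in the first TamCre DN3 library was at 97.1 CPM, with the others at 68.0 to 72.3 CPM (gap over range 0.851). Without these libraries the log2 fold change of Capn5 in tamoxifen ETP was 0.01 and that of Spats2 in tamoxifen DN3 -0.29.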

How the results depend on the processing

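The described values of the 4 genes moved by less than the spread between libraries in 142 of 144 alternatives, whatever their sign. Capn5 in pI-pC DN3 ran from -0.02 to 0.28 and Spats2 in pI-pC ETP from -0.88 to 0.54, both turning sign. The tested values kept their direction and call in 172 of 184. With DESeq2, 8 genes were called in tamoxifen ETP (0 with edgeR) and 415 in tamoxifen DN3 (11), of which 1 was Spats2, and 1150 between the stages in MxCre (371), with 2 of the 4 genes (Cdh1 beside Bst1). Estimating the spread over all 8 groups called 1504 genes and all 4 members in MxCre and 969 genes in IgG (1873), there without Spats2. Leaving out each library in turn gave 0 to 1 genes in tamoxifen ETP, 0 to 8 in tamoxifen DN3 (0 without the third or the fourth TamCre DN3 library), and in IgG 941 to 1883 genes (941 and 993 without the third and the second IgG DN3 library). In MxCre it gave 135 to 735 genes and 1 to 2 members: Capn5 was added without the first MxCre ETP library (735 genes) and Spats2 without the third, and the second MxCre ETP library and each MxCre DN3 library took the count down to 135 to 194. In tamoxifen ETP, Capn5 ran from -0.19 to 0.16 and Spats2 from -1.01 to 0.084, both turning sign. Except where a construction with fewer libraries applies, the cause was not tested. DESeq2's size factors and the absence of a filter ended or added no call of the 4 genes. The r of Spats2 with its likest genes without its lowest library was chosen after seeing the data.

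With the replicate number as a block, 0 genes were called in tamoxifen DN3, and between the stages in MxCre 663 genes and 2 members (Bst1 and Cdh1, the latter with an edgeR adjusted p of 0.00574). Samples of the same number deviated together weakly or not at all: r ran from 0.04 to 0.16 in tamoxifen ETP, -0.58 to -0.01 in tamoxifen DN3, 0.03 to 0.25 in MxCre and -0.06 to 0.00 in IgG. In MxCre, ETP replicates 2 and 3 were most like the DN3 replicate of their own number. The numbers were not taken as pairs, but the labels do not say whether such samples share a mouse, so pairing is not excluded.

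In ETP single libraries held 1 and 3 counts of Spats2, although the first of them had the highest total of its table (23962395). With 3 or 4 libraries per group and 1 kit per table, small differences such as those of Bst1 and Capn5 in tamoxifen DN3 could not be resolved. Cell mix, the sort gate and reads shared with overlapping genes were not tested as sources of any value.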
